A study of Mus musculus with 22 samples.

Results

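The amino acid stress response was followed through 10 genes, Atf4 and 9 genes known to respond to it or act beside it, in mouse C3H 10T1/2 cells, a mesenchymal stem cell line that hormonal induction turns into adipocytes. The genes were chosen by name as Atf4, Asns, Trib3, Chac1, Psat1, Phgdh, Sesn2, Slc7a11, Slc7a5 and Atf5, which are 10 of the 30170 gene rows in the count table. All 10 passed the filter on low counts, as did 14520 genes in all. The cells were made to express DNMT3A1, a de novo DNA methyltransferase, as WT, with the W330R mutation in the PWWP domain, or with the double mutation W330R-R181E, which adds a change in the N-terminal part of the protein. WT and W330R cells were sampled undifferentiated and untreated, and at days 2, 4 and 6 of adipocyte differentiation, and W330R-R181E cells at days 2, 4 and 6. Differentiation was induced for the first 2 days with isobutylmethylxanthine, dexamethasone, insulin and troglitazone, and continued with insulin alone. Each of the 11 conditions had 2 libraries, which gives 22. In the labels the second change is R181E, but the 6 columns of counts for this genotype carry the name R181A. The labels do not say what drives the construct, whether a line is 1 clone, or whether replicate libraries came from separate cultures, so a p-value here measures the spread between these libraries only, and genotype and line cannot be told apart.

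ATF4 is the transcription factor at the end of the integrated stress response. When uncharged tRNA activates the kinase GCN2, or unfolded proteins in the endoplasmic reticulum (ER) activate PERK, the phosphorylation of eIF2α slows general translation while the Atf4 mRNA is translated more. ATF4 then induces amino acid synthesis, uptake and tRNA charging, often by binding, with a C/EBP partner, to a composite site called the C/EBP-ATF response element. Since ATF4 is controlled largely at translation, its mRNA level is not a measure of its activity.

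Promoter sequences were taken from RefSeq (build GRCm38.p6) as the 250 bases before each annotated start. Entries were found for 9 of the 10 genes, in 11 windows, and there was none for Slc7a5. Both strands were searched for TGATGNAA and TGNTGCAA, spellings of the C/EBP-ATF core picked after the sequences had been read, which overlap in TGATGCAA. TGATGNAA was present in 3 of the 11 windows, TGNTGCAA in 5 and either motif in 6, each window from a different gene. Of all 32817 promoter windows of that length 3.45%, 2.72% and 5.32% held them, and no comparison is drawn, since the spellings were picked after these promoters had been read. The windows of Atf4, Phgdh and Atf5 held neither spelling, nor did the other window of Psat1. A match is a description of letters and not of a bound site. The following 5 promoters are all among those with a match. Their genes act in synthesis of asparagine and serine, feedback, glutathione breakdown and cystine uptake. The windows without a match, and that of Sesn2, are not shown. Each runs 5′ to 3′ along the gene, with the matches in capitals.
Asns (chr6:7693210-7693459, minus strand): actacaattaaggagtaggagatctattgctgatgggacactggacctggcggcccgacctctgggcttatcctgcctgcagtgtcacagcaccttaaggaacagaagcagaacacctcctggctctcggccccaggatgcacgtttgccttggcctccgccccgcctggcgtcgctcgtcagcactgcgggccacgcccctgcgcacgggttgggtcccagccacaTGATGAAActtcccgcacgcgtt
Trib3 (chr2:152344061-152344310, minus strand): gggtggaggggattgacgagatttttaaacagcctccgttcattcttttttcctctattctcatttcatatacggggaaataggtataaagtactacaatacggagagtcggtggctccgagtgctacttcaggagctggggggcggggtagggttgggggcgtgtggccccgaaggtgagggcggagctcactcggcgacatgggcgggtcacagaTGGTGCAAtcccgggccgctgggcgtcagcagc
Psat1 (chr19:15925060-15925309, minus strand): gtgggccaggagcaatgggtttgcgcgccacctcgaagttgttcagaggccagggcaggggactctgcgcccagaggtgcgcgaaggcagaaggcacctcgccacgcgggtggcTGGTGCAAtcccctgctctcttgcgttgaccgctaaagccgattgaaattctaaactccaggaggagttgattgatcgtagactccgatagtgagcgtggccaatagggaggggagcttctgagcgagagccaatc
Chac1 (chr2:119350992-119351241, plus strand): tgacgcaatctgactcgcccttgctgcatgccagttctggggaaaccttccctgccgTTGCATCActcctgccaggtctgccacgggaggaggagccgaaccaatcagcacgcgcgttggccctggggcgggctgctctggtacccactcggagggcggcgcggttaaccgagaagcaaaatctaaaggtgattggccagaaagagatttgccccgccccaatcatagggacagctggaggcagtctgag
Slc7a11 (chr3:50443614-50443863, minus strand): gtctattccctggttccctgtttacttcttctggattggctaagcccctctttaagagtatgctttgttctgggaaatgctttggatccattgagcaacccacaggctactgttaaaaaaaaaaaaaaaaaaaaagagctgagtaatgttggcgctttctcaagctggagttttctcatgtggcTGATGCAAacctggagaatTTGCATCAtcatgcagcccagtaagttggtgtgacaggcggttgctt

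In Asns the match was TGATGAAA, from 23 to 16 bases before the start. Trib3 held TGGTGCAA from 33 to 26 bases before its start, and Psat1 held the same 8 letters from 136 to 129 bases before one of its annotated starts. The Chac1 match, TGATGCAA from 193 to 186 bases before the start, is on the minus strand of the gene and therefore appears in the line above as its reverse complement. Slc7a11 carried TGATGCAA once on each strand, at 66 to 59 and 47 to 40 bases before the start. The match in Sesn2 was TGCTGCAA on the minus strand of the gene, 218 to 211 bases before the start.

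The libraries held 8859501 to 47453908 counts on genes, with a median of 19355792. The lowest count of any of the 10 genes in any library was 32, for Slc7a11. Levels below are CPM, counts scaled to a common library size with TMM factors, which allow a gene to be compared between libraries but not 1 gene with another. The Dnmt3a transcript, which the counts cannot split into endogenous and introduced copies, ranged from 68.5 to 346 CPM and so does not check the labels. At day 2 it was at 175 and 322 CPM in WT, 88.4 and 142 in W330R, and 77.3 and 148 in W330R-R181E. In undifferentiated cells it was at 344 and 346 CPM in WT and 316 and 326 in W330R. At days 4 and 6 each mutant overlapped WT. The part of its level in the results was not tested. The pairs of undifferentiated libraries were far closer than the others, with a chi-square per degree of freedom between replicates of 3.40 in WT and 3.10 in W330R, against 29.3 to 103 in the other 9 conditions. Their columns are also named in another style than those of days 2 to 6, so that a batch and the step from undifferentiated cells to day 2 cannot be told apart.

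**Figure D1:**
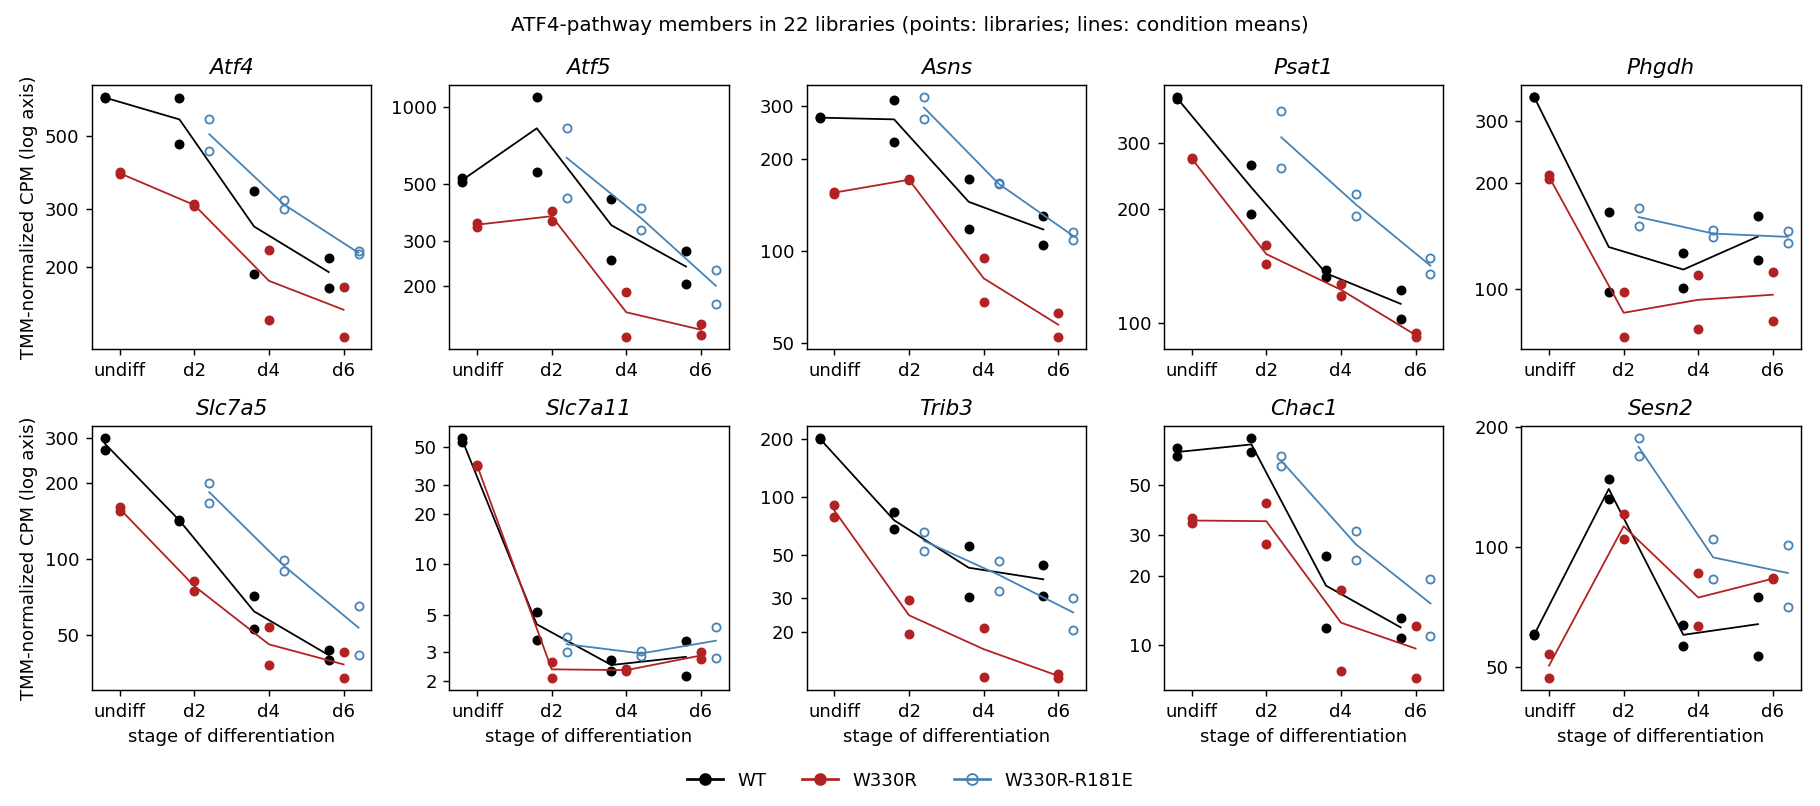
TMM-normalized CPM of the 10 genes (vertical axis, logarithmic, a scale of its own in each panel) by stage of differentiation (horizontal axis). Points are single libraries, 2 in each condition, lines join condition means, and colors mark WT, W330R and W330R-R181E. Both W330R libraries lay under both WT libraries for 10 of the 10 genes in undifferentiated cells, and for 9, 4 and 5 at days 2, 4 and 6. Of all genes, 32.3%, 20.6%, 24.8% and 26.4% did so at these stages. Trib3, with the largest averaged differences, was at 11.6 and 12.2 CPM in W330R at day 6 against 30.6 and 44.5 in WT.

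Most of the 10 genes were lower in W330R cells than in WT cells, and most were higher in W330R-R181E cells than in W330R cells. Averaged over the 4 stages, 8 of 10 were lower in W330R than in WT and 0 were higher, from edgeR's quasi-likelihood test at an adjusted p under 0.05. Of all genes tested in that comparison, 22.9% were called, 11.8% as lower. The 10 genes and the comparisons were chosen with earlier results of these data known, so such shares are given as background only. The median log2 fold change of the 10 genes was -0.60, beside 0.01 for all genes tested. Averaged over days 2, 4 and 6, 8 of 10 were higher in W330R-R181E than in W330R and 0 were lower, where 17.2% of all genes were called and 7.86% were higher. There the median of the 10 genes was 0.82, beside 0.01 for all genes. Against WT, W330R-R181E had 3 of 10 higher and 0 lower, with 9.56% of all genes called and 4.44% higher, and a median of 0.15. These 3 comparisons share libraries, so their values are given side by side and no overlap between them is drawn. In bulk RNA, fewer cells of a type and less RNA per cell cannot be told apart. At an unadjusted p under 0.05 in edgeR these 3 comparisons had 9, 10 and 3 of the 10 genes, beside 5174, 4367 and 3948 of all 14520 genes. In the last of them the 3 of 10 was near the share of all genes. DESeq2 called 9, 9 and 3 of the 10, and its share of all genes is not given here. By either tool 0 were called in the opposite direction.

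**Figure D2:**
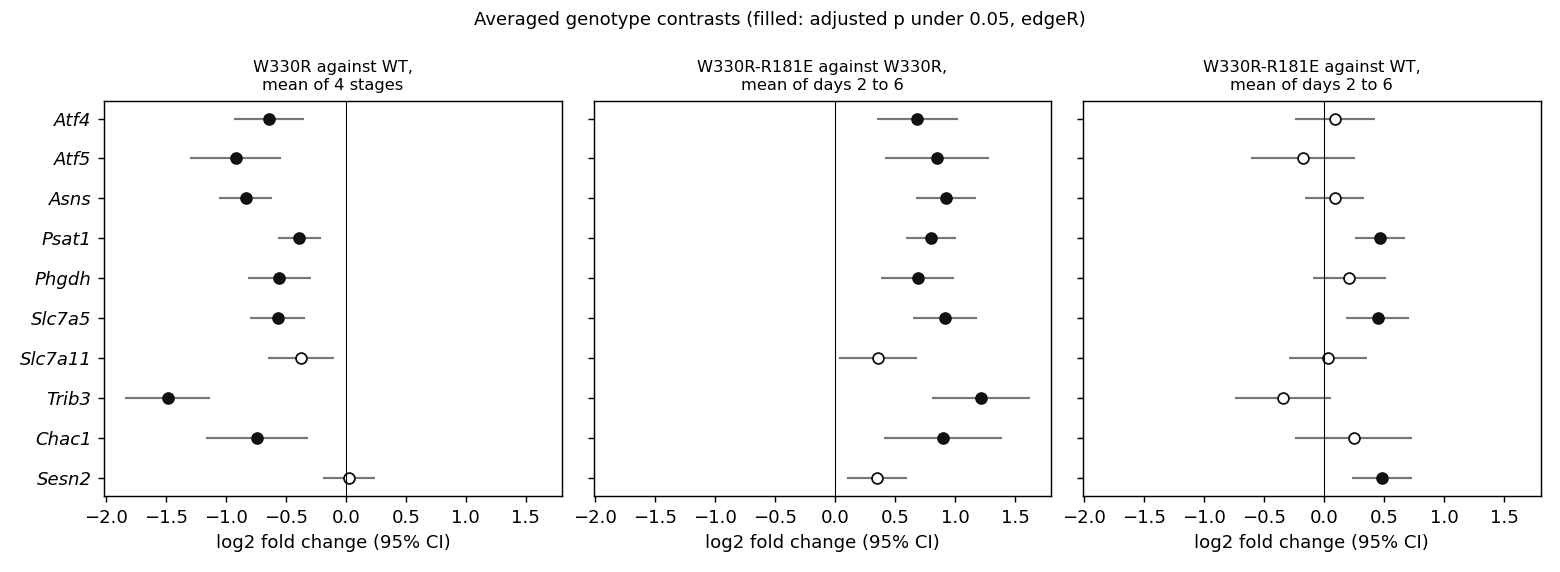
Log2 fold change of each of the 10 genes (horizontal axis, with the 95% confidence interval as a line) in the 3 averaged genotype comparisons, 1 panel each. Filled points had an adjusted p under 0.05 in edgeR, which holds for 8, 8 and 3 genes from left to right. Trib3 stands farthest from 0 in the first 2 panels, at -1.48 and 1.22.

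Atf4 and Atf5 are the transcription factors of the set, Atf5 being a related bZIP factor whose mRNA is also translated more under eIF2α phosphorylation. In WT, Atf4 held 651 and 657 CPM in undifferentiated cells, 472 and 650.0 at day 2, 191 and 341 at day 4, and 173 and 213 at day 6. In W330R it held 388 and 383, 310.3 and 307, 138 and 225, and 123 and 174 CPM at the same stages. The W330R-R181E libraries were at 449 and 563 CPM at day 2, 299.7 and 319.9 at day 4, and 219 and 223 at day 6. WT and W330R did not overlap in undifferentiated cells and at day 2, and overlapped at days 4 and 6, whereas both W330R-R181E libraries lay above both W330R libraries on each day. Atf4 was 1.56-fold lower in W330R than in WT over the 4 stages (log2 -0.64 ± 0.135 SE, adjusted p = 0.00469, edgeR) and 1.61-fold higher in W330R-R181E than in W330R (adjusted p = 0.00839, edgeR). Against WT the W330R-R181E cells differed by 0.09 on the log2 scale, with a 95% interval of -0.24 to 0.42.

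Atf5 in WT held 526 and 509 CPM in undifferentiated cells, 556 and 1093 at day 2, 252 and 438 at day 4, and 203 and 273 at day 6. The W330R libraries held 339.8 and 353, 358 and 390.3, 126 and 189, and 128 and 142 CPM. All W330R libraries were below the WT libraries of their stage, and the spread within WT at day 2 was the widest of any WT stage for this gene. The W330R-R181E libraries held 440.2 and 826 CPM at day 2, 330.045 and 404 at day 4, and 230.3 and 170.0 at day 6, above W330R on each day. Atf5 was 1.89-fold lower in W330R than in WT (adjusted p = 0.00265, edgeR) and 1.80-fold higher in W330R-R181E than in W330R (adjusted p = 0.0108, edgeR). The exons of Atf5 overlap Il4i1 and Nup62 on the opposite strand, and whether the counting used strand is not given in the sources used here, so its level may hold reads of those genes.

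Asns, asparagine synthetase, makes asparagine from aspartate and glutamine. It held 274 and 274 CPM in undifferentiated WT cells, 227 and 313 at day 2, 118 and 172 at day 4, and 105 and 131 at day 6. W330R libraries were at 157 and 154, 172 and 171, 68.4 and 94.9, and 52.4 and 62.7 CPM. W330R-R181E libraries were at 271 and 320.0 CPM at day 2, 167 and 166 at day 4, and 109 and 116 at day 6. Every W330R library was below the libraries of both other genotypes at its stage, and those of WT and W330R-R181E overlapped on all 3 days. The gene was 1.78-fold lower in W330R than in WT (log2 -0.83 ± 0.101 SE, adjusted p = 0.000156, edgeR) and 1.90-fold higher in W330R-R181E than in W330R (log2 0.93 ± 0.117 SE, adjusted p = 0.000148, edgeR).

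Psat1 and Phgdh catalyse consecutive steps of serine synthesis from a glycolytic intermediate. Psat1 held 397 and 392.1 CPM in undifferentiated WT cells, 194 and 262 at day 2, 132 and 138 at day 4, and 122 and 102 at day 6. In W330R it held 273 and 272, 143 and 161, 118 and 127, and 93.9 and 91.6 CPM, below WT at each stage, with gaps that were small at days 4 and 6. In W330R-R181E it held 256 and 364 CPM at day 2, 192 and 219.7 at day 4, and 135 and 148 at day 6, so that both libraries were above both WT libraries at days 4 and 6. Psat1 was 1.31-fold lower in W330R than in WT (adjusted p = 0.0056, edgeR), 1.74-fold higher in W330R-R181E than in W330R (adjusted p = 0.000113, edgeR) and 1.38-fold higher in W330R-R181E than in WT (adjusted p = 0.0121, edgeR).

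Phgdh, the first enzyme of that route, held 351 and 351 CPM in undifferentiated WT cells and 206 and 211 in undifferentiated W330R cells. From day 2 to day 6 the WT libraries ranged from 98.3 to 165 CPM, those of W330R from 73.3 to 112 and those of W330R-R181E from 135 to 169.6. No W330R library of days 2 to 6 reached the lowest W330R-R181E library, while WT and W330R overlapped at day 2 and day 4. Phgdh was 1.47-fold lower in W330R than in WT (adjusted p = 0.00629, edgeR) and 1.61-fold higher in W330R-R181E than in W330R (adjusted p = 0.00462, edgeR). Of its 50-base words, 47.8% also occur in other genes, among them the pseudogenes Gm7901 and Gm9347, so its counts are uncertain, whereas the share was at most 0.739% for each of the other 9 genes.

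The transporters of the set are Slc7a5, which carries leucine and other large neutral amino acids, and Slc7a11, which takes up cystine in exchange for glutamate. Slc7a5 held 300.0 and 269 CPM in undifferentiated WT cells, 141 and 142 at day 2, 53.0 and 71.1 at day 4, and 43.7 and 39.8 at day 6. In W330R it held 155 and 160.3, 81.8 and 74.4, 38.0 and 54.0, and 33.9 and 42.8 CPM. In W330R-R181E it held 199.98 and 166 CPM at day 2, 89.3 and 98.6 at day 4, and 65.3 and 41.8 at day 6. The W330R libraries were clearly under WT in undifferentiated cells and at day 2 and overlapped WT at days 4 and 6, and W330R-R181E lay above WT at days 2 and 4. Slc7a5 was 1.48-fold lower in W330R than in WT (adjusted p = 0.00235, edgeR), 1.89-fold higher in W330R-R181E than in W330R (adjusted p = 0.000232, edgeR) and 1.36-fold higher in W330R-R181E than in WT (adjusted p = 0.0373, edgeR).

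Slc7a11 was measured at 57.0 and 53.8 CPM in undifferentiated WT cells and at 38.6 and 39.4 in undifferentiated W330R cells. In all 18 libraries of days 2 to 6 it was between 2.09 and 5.21 CPM. The averaged differences did not pass the test, at -0.37 ± 0.129 SE on the log2 scale for W330R against WT (adjusted p = 0.0516, edgeR) and 0.36 ± 0.151 SE for W330R-R181E against W330R (adjusted p = 0.123, edgeR).

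Trib3 is a pseudokinase that is induced by ATF4 and dampens the response. In WT it held 202 and 200.1 CPM in undifferentiated cells, 68.3 and 83.3 at day 2, 30.5 and 55.6 at day 4, and 30.6 and 44.5 at day 6. In W330R it held 91.3 and 78.7, 29.2 and 19.6, 11.7 and 20.9, and 11.6 and 12.2 CPM. In W330R-R181E it held 65.9 and 52.7 CPM at day 2, 32.7 and 46.5 at day 4, and 30.0 and 20.6 at day 6. Both W330R libraries were below both WT libraries at all 4 stages and below both W330R-R181E libraries on all 3 days. Trib3 had the largest averaged differences of the 10 genes, 2.80-fold lower in W330R than in WT (log2 -1.48 ± 0.165 SE, adjusted p = 8.83e-05, edgeR) and 2.33-fold higher in W330R-R181E than in W330R (log2 1.22 ± 0.191 SE, adjusted p = 0.000729, edgeR). The difference between W330R-R181E and WT was -0.35 ± 0.187 SE (adjusted p = 0.251, edgeR).

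Chac1 degrades glutathione. Its libraries held 66.7 and 71.8 CPM in undifferentiated WT cells, 69.7 and 80.0 at day 2, 11.8 and 24.3 at day 4, and 10.7 and 13.1 at day 6. The W330R libraries held 33.8 and 35.8, 41.6 and 27.6, 7.63 and 17.3, and 7.15 and 12.1 CPM, under WT in undifferentiated cells and at day 2 and overlapping it later. W330R-R181E libraries held 60.1 and 66.9 CPM at day 2, 23.4 and 31.4 at day 4, and 19.3 and 10.9 at day 6. Chac1 was 1.67-fold lower in W330R than in WT (adjusted p = 0.0165, edgeR) and 1.86-fold higher in W330R-R181E than in W330R (adjusted p = 0.016, edgeR). The first call was lost without the second WT library of day 4 (adjusted p = 0.0508, edgeR) and without the undifferentiated libraries (adjusted p = 0.0771, edgeR), and the second without the first W330R library of day 6 (adjusted p = 0.0566, edgeR) or the first W330R-R181E library of day 6 (adjusted p = 0.0538, edgeR).

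Sesn2 binds leucine and restrains mTORC1 when leucine is low. In WT it held 60.04 and 60.4 CPM in undifferentiated cells, 132 and 148 at day 2, 56.6 and 63.9 at day 4, and 74.8 and 53.3 at day 6. In W330R it held 46.9 and 53.9, 105 and 121, 63.2 and 86.3, and 83.7 and 83.0 CPM, so that it was under WT in undifferentiated cells and at day 2 and above WT at day 6. The W330R-R181E libraries held 169 and 188 CPM at day 2, 83.4 and 105 at day 4, and 101 and 70.8 at day 6. Sesn2 differed by 0.03 ± 0.101 SE between W330R and WT (adjusted p = 0.883, edgeR) and by 0.35 ± 0.116 SE between W330R-R181E and W330R (adjusted p = 0.0529, edgeR), and it was 1.39-fold higher in W330R-R181E than in WT (adjusted p = 0.023, edgeR).

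The 3 genes higher in W330R-R181E than in WT, Psat1, Sesn2 and Slc7a5, had log2 fold changes of 0.46, 0.48 and 0.44. All 3 calls were lost when the model was fitted to the conditions of that comparison alone, with adjusted p values of 0.109, 0.118 and 0.133 in edgeR. Only Psat1 remained called without the second WT library of day 6, the second W330R-R181E library of day 4 or the first W330R-R181E library of day 6. The call of Slc7a5 was lost without any 1 of 8 of the 12 libraries of the comparison, at an adjusted p of up to 0.117 in edgeR. For the other 7 genes the estimates ran from -0.35 for Trib3 to 0.24 for Chac1, and none passed the test.

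At single stages the direction was shared by most genes, and fewer passed the test. In undifferentiated cells all 10 genes were lower in W330R, and for all 10 both W330R libraries lay below both WT libraries, where 32.3% of all genes did so. The log2 fold changes ran from -1.24 for Trib3 to -0.26 for Sesn2. In edgeR 0 of 10 passed the test there, with 1.77% of all genes called. At an unadjusted p under 0.05 in edgeR there were 7 of 10, beside 1791 of all 14520 genes. DESeq2 called 3 of 10, and its share of all genes is not given here. A fit to these 4 libraries alone, which are the close pairs described above, called 10 of 10 lower, with 30.3% of all genes called and 15.6% called lower. At day 2 both W330R libraries were below both WT libraries for 9 of 10 genes (20.6% of all genes), and Trib3 and Slc7a5 were called, with 3.08% of all genes called. At day 4 that held for 4 of 10 genes (24.8% of all genes) and at day 6 for 5 of 10 (26.4% of all genes). Asns and Trib3 were called at both days, with 6.18% and 7.56% of all genes called.

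Against W330R, the W330R-R181E cells had higher estimates for all 10 genes on each day. Both W330R-R181E libraries were above both W330R libraries for 10 of 10 genes at day 2, 9 at day 4 and 6 at day 6, where 17.5%, 22.1% and 23.1% of all genes did so. Psat1 and Slc7a5 were called at day 2, Asns, Psat1 and Slc7a5 at day 4, and Asns at day 6, with 2.65%, 1.91% and 1.49% of all genes called. Against WT, 0 of 10 were called by edgeR or by DESeq2 on any of the 3 days, and edgeR called 0%, 0% and 0.916% of all genes. At an unadjusted p under 0.05 in edgeR there were 1, 3 and 0 of 10, beside 1297, 1638 and 2156 of all 14520 genes. The calls at days 2, 4 and 6 between W330R and WT and between W330R-R181E and W330R rest on the spread pooled over all 22 libraries. With only the 4 libraries of a comparison in the fit, 0 of 10 were called in each of these 6 comparisons. Such fits leave 2 residual degrees of freedom, and the share of all genes they called is not given here. The 0 of 10 is therefore not read as particular to these genes.

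**Figure D3:**
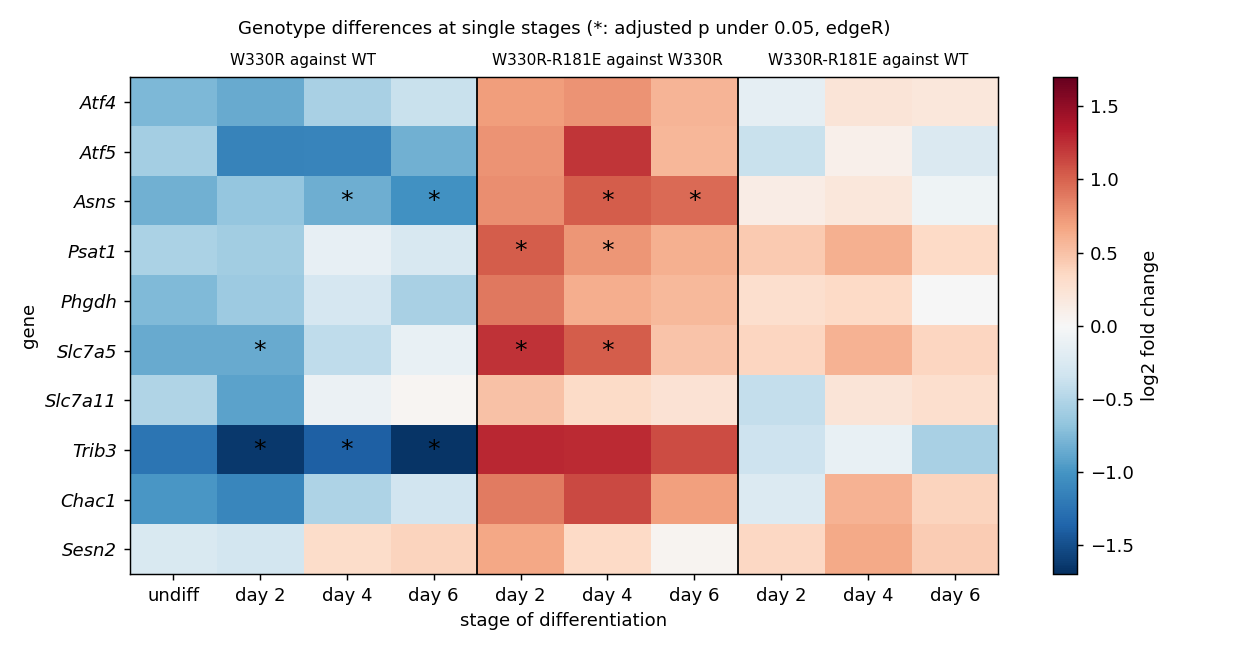
Log2 fold change of the 10 genes (rows) at single stages (columns) for W330R against WT, W330R-R181E against W330R and W330R-R181E against WT. Blue marks lower and red higher in the genotype named first, and a star marks an adjusted p under 0.05 in edgeR. The left block is blue for all genes in undifferentiated cells and at day 2, the middle block is red for all genes, and the right block, with no star, is mixed.

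The difference between W330R and WT did not change detectably with the stage for any of the 10 genes. The test of the change in that difference from undifferentiated cells to day 6 called 0 of 10 in edgeR (3.87% of all genes). From day 2 to day 6 it called 0 of 10 (0.0895% of all genes). The change from day 2 to day 6 in the difference between W330R-R181E and W330R was called for 0 of 10 (0% of all genes). DESeq2 called 0 of 10 in each. At an unadjusted p under 0.05 in edgeR these tests had 2, 3 and 2 of 10, beside 2542, 974 and 594 of all 14520 genes. Slc7a5, for instance, moved from -0.85 in undifferentiated cells to -0.12 at day 6 between W330R and WT, and this change of 0.73 ± 0.3 SE had an adjusted p of 0.215 in edgeR. For Sesn2 the change was 0.64 ± 0.287 SE (adjusted p = 0.265, edgeR).

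Changes along differentiation were tested step by step within each genotype. Between undifferentiated cells and day 2, Trib3, Psat1, Phgdh, Slc7a11 and Slc7a5 fell and Sesn2 rose, both in WT and in W330R. That is 6 of 10 called in each, beside 50.8% of all genes in WT and 48.1% in W330R, so the share of the 10 genes was near the background. Slc7a11 moved most, by -3.65 ± 0.27 SE on the log2 scale in WT (adjusted p = 1.98e-07, edgeR) and by -4.05 ± 0.278 SE in W330R (adjusted p = 1.67e-07, edgeR). Sesn2 rose by 1.22 ± 0.205 SE in WT (adjusted p = 0.000218, edgeR) and by 1.16 ± 0.206 SE in W330R (adjusted p = 0.00038, edgeR). Atf4, Asns, Chac1 and Atf5 did not pass the test at this step in either genotype, with estimates from -0.32 for Atf4 to 0.67 for Atf5.

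Between day 2 and day 4, 7 of 10 genes fell in WT, namely Atf4, Asns, Chac1, Psat1, Sesn2, Slc7a5 and Atf5, where 10.8% of all genes were called and 4.18% fell. In W330R 4 fell (Asns, Chac1, Slc7a5 and Atf5), with 12.3% of all genes called and 4.99% lower, and in W330R-R181E 4 fell (Asns, Psat1, Sesn2 and Slc7a5), with 10.7% called and 4.33% lower. Whether these steps differed between genotypes was not tested. Chac1 fell by 2.04 ± 0.406 SE in WT on the log2 scale (adjusted p = 0.00611, edgeR) and by 1.46 ± 0.402 SE in W330R (adjusted p = 0.0301, edgeR), and its estimate in W330R-R181E was -1.21 ± 0.395 SE (adjusted p = 0.0645, edgeR). The count in WT was 3 without the second library of day 2, 2 without the first library of day 4, and 0 with only these 4 libraries in the fit. In W330R it was 0 to 2 without any 1 of the first day 2, second day 2 or first day 4 libraries, and in W330R-R181E 0 or 1 without any 1 of the second day 2, first day 4 or second day 4 libraries. Between day 4 and day 6, edgeR called 0 of 10 genes in every genotype, with 0.324%, 0% and 0.0207% of all genes called in WT, W330R and W330R-R181E. At an unadjusted p under 0.05 in edgeR there were 1, 2 and 4 of the 10 genes, beside 1510, 958 and 925 of all 14520 genes. DESeq2 called 0, 0 and 1 of the 10, and its share of all genes is not given here.

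Over the 11 conditions, 7 of 10 genes had their lowest mean in W330R cells at day 6, and the others in W330R cells too, Phgdh at day 2, Sesn2 in undifferentiated cells and Slc7a11 at day 4. The highest mean was in undifferentiated WT cells for 6 genes and in a day 2 condition for the other 4. The ratio of the highest to the lowest mean was 23.8 for Slc7a11, 16.96 for Trib3 and from 3.54 to 7.79 for the other 8. Neighbours in these orders often overlapped. Of the 10 neighbouring pairs of conditions, the libraries overlapped in 7 for Trib3, 9 for Chac1 and 6 for Atf4. For Trib3 the gap below undifferentiated WT cells was clear, at 201 against 85.0 CPM on average. Its 3 lowest conditions, all W330R, overlapped their neighbours.

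The shape of each gene over the 11 conditions was set beside the mean of the other 9, as Pearson's r on log2 CPM and as a description only, since the conditions share genotypes and days. The value was 0.99 for Atf4, 0.98 for Slc7a5, 0.96 for Psat1, 0.95 for Chac1, 0.92 for Asns, 0.90 for Trib3 and 0.88 for Atf5. It was 0.69 for Phgdh and 0.58 for Slc7a11. Sesn2 stood apart at 0.13. Of 11145 other genes whose average log2 CPM reached 1, 108 had an r of at least 0.9 with the mean of the 10 genes and 13 of at least 0.95. The 8 most alike were Aars, Heatr3, Sars, Shmt2, Tab2, Psph, Cars and Iars, with r from 0.965 to 0.973. Aars, Sars, Cars and Iars are aminoacyl-tRNA synthetases, and Psph and Shmt2 are enzymes of serine and glycine metabolism.

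Other parts of the pathway were read from lists of genes in the 3 averaged comparisons. Of all genes, 22.9% were called between W330R and WT, 11.8% as lower. Between W330R-R181E and W330R 17.2% were called, 7.86% as higher, and between W330R-R181E and WT 9.56%, with 4.44% higher. The list counts below stand beside these shares, and a count near them is not read as a result about its list. Of 14 other ATF4-responsive factors and effectors, 10 were lower in W330R than in WT and 0 higher, with a median log2 fold change of -0.85. Those with the lowest adjusted p were Gpt2, a glutamate-pyruvate transaminase, at 2.76-fold lower (adjusted p = 2.88e-05, edgeR), and Cth, which makes cysteine from cystathionine, at 2.71-fold lower (adjusted p = 0.000148, edgeR). In W330R-R181E 4 of the 14 were higher than in W330R and 0 lower, with Gpt2 at 2.19-fold and Nupr1, a stress-induced chromatin protein, at 2.23-fold. Against WT, 5 of the 14 were lower in W330R-R181E and 0 higher, among them Ero1l, an ER oxidase, at 2.19-fold lower, and Vegfa at 1.29-fold lower. The list median of W330R-R181E against WT was -0.35, where the 10 genes described above had 0.15.

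Among 9 tested enzymes of serine, glycine, one-carbon and proline synthesis, 4 were lower in W330R than in WT and 0 higher, with Mthfd2, a mitochondrial folate enzyme, at 2.09-fold lower and Psph, the last step of serine synthesis, at 1.36-fold lower. In W330R-R181E 7 of the 9 were higher than in W330R and 0 lower, with Psph at 1.31-fold and Mthfd1l at 1.54-fold. Aldh1l2 and Aldh18a1 were higher in W330R-R181E than in WT as well, at 1.95-fold and 1.58-fold, and 0 of the 9 were lower. Gldc, also of this list, did not pass the filter.

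Of 18 cytosolic aminoacyl-tRNA synthetases, which load amino acids onto tRNA, 12 were lower in W330R than in WT and 0 higher, with a median of -0.39. Gars was 1.32-fold lower and Wars 1.33-fold lower. In W330R-R181E 10 of the 18 were higher than in W330R and 0 lower, with a median of 0.36, Gars at 1.31-fold and Cars at 1.44-fold. Against WT there was 1 higher, Yars at 1.38-fold, and 1 lower, Wars at 1.35-fold. These medians were closer to 0 than those of the 10 genes, which were -0.60 and 0.82.

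Of 10 amino acid transporters, 4 were lower and 1 higher in W330R than in WT. Slc1a5, which carries glutamine, was 3.01-fold lower in W330R than in WT (adjusted p = 4.77e-05, edgeR), 2.14-fold higher in W330R-R181E than in W330R (adjusted p = 0.00123, edgeR) and 1.98-fold lower in W330R-R181E than in WT (adjusted p = 0.00734, edgeR). Slc38a1, another glutamine carrier, was higher in each of these comparisons, at 1.46-fold, 1.61-fold and 2.94-fold, although its mean over the WT and W330R libraries ran the other way in the first, 18.3 CPM in W330R and 21.1 in WT, since the fold change weights the log level of each stage equally. In W330R-R181E 4 of the 10 were higher than in W330R and 0 lower, and 2 were higher and 1 lower than in WT.

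Of 10 genes for the sensor kinases and the control of eIF2, 3 were lower in W330R than in WT and 0 higher, with Ppp1r15b, a phosphatase subunit acting on eIF2α, at 1.51-fold lower and Dnajc3, an inhibitor of PERK, at 1.17-fold lower. Eif2ak3, the gene of PERK, and Dnajc3 were the 2 higher in W330R-R181E than in W330R, at 1.64-fold and 1.29-fold. Ppp1r15b was the 1 called against WT, 1.37-fold lower. For both comparisons of W330R-R181E the counts of this list were near the shares of all genes called either way, 17.2% and 9.56%. Of 16 ER chaperones and unfolded protein response genes, 9 were lower in W330R than in WT and 8 higher in W330R-R181E than in W330R, with 0 in the other direction. Hspa5, the main ER chaperone, was 1.401-fold lower and then 1.36-fold higher, and Dnajb9, a cochaperone, was 2.31-fold lower and then 2.38-fold higher. Against WT only Sdf2l1 was called, 1.38-fold higher in W330R-R181E.

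Of 10 targets of NRF2, the transcription factor of the oxidative stress response that also controls Slc7a11, 5 were lower in W330R than in WT and 0 higher, with Gclm at 1.42-fold and Me1 at 1.89-fold lower. In W330R-R181E 4 were higher and 1 lower than in W330R, with Gsr at 1.36-fold and Gclm at 1.23-fold higher, and against WT Me1 was 1.57-fold lower. Of 13 genes of amino acid sensing by mTORC1, 2 were higher and 2 lower in W330R than in WT, with Sesn1, a relative of Sesn2, at 1.28-fold higher and Rragd, a Rag GTPase, at 2.57-fold lower. In W330R-R181E against W330R, Rragd was 1.703-fold higher and Gatsl2 was 1.35-fold lower, and against WT 0 of 13 were called by edgeR. The counts of this last list were near or below the shares of all genes, 22.9%, 17.2% and 9.56%, or not far above them.

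**Figure D4:**
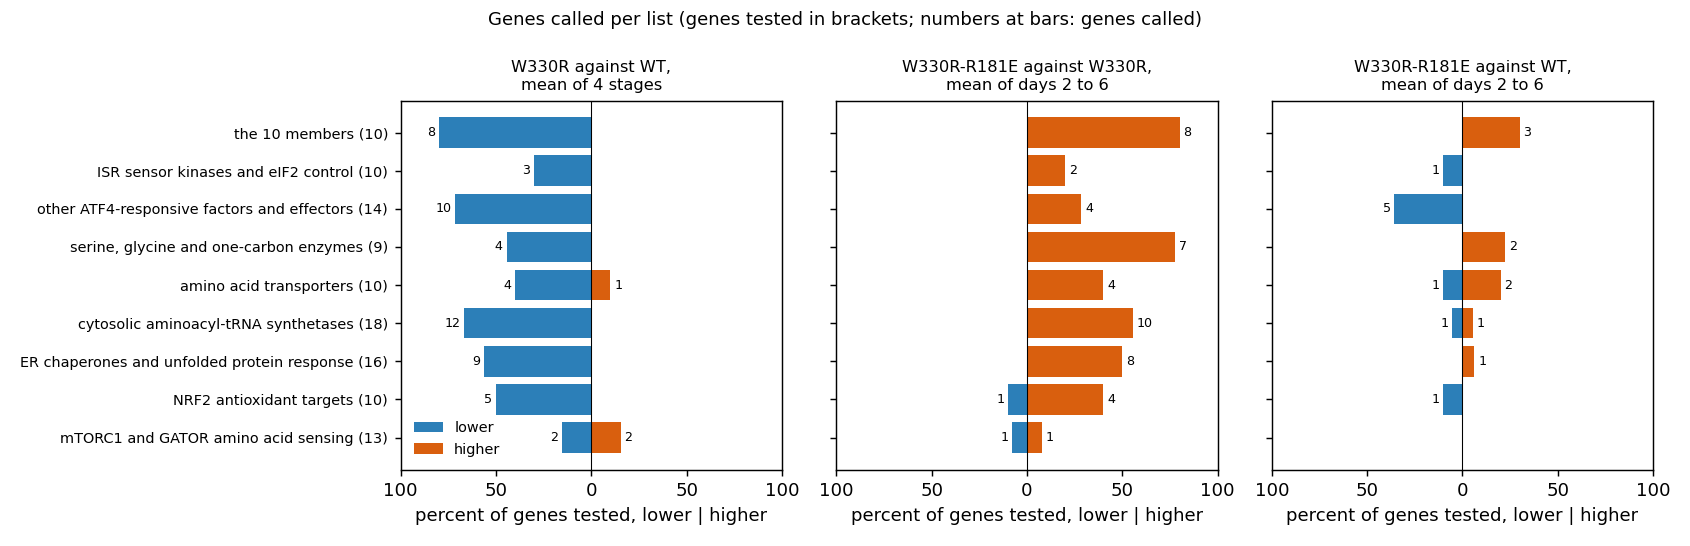
Percent of the genes tested in each list that were called lower (blue, to the left) or higher (orange, to the right) in the 3 averaged genotype comparisons, with the number of genes at each bar and the genes tested in brackets. In the first panel 8 of the 10 genes, 10 of 14 other ATF4-responsive genes and 12 of 18 aminoacyl-tRNA synthetases are lower. In the second panel those called in these lists are all higher, and in the third panel 3 of the 10 genes are higher and 5 of 14 other ATF4-responsive genes are lower. Of all genes tested, 22.9%, 17.2% and 9.56% were called in the 3 panels. In the first 11.8% were lower, and in the others 7.86% and 4.44% were higher.

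Markers of adipocytes moved with the same comparisons. Of 8 adipocyte markers, 4 were lower and 0 higher in W330R than in WT averaged over the 4 stages. Averaged over days 2 to 6, 5 were higher and 0 lower in W330R-R181E than in W330R. Against WT, 3 were lower in W330R-R181E and 0 higher. Of all genes, 22.9%, 17.2% and 9.56% were called either way in these 3 averaged comparisons. At day 6 alone, all 8 were called lower in W330R than in WT by edgeR, where 7.56% of all genes were called. The differences there ran from 2.16-fold for Pparg to 6.23-fold for Cidec. Their summed level was 51.5 to 59.6 CPM in the undifferentiated libraries, where 3 of the 8 were at 0. At days 2 to 6 it ranged from 2861 to 9791 CPM in WT, from 1546 to 2451 in W330R and from 1934 to 4341 in W330R-R181E. In undifferentiated cells the sums were 55.6 and 59.6 CPM in WT and 51.5 and 56.9 in W330R. Of 8 mesenchymal stromal markers, 4 were higher in W330R than in WT and 4 lower in W330R-R181E than in W330R, with 0 in the other direction. Their sum was 20552 to 23275 CPM in undifferentiated cells and 2847 to 16637 at days 2 to 6. The part of either list in the results at days 2 to 6 was not tested.

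Markers of other lineages were checked in the same way. Macrophage markers summed to 3.37 to 16.5 CPM, endothelial markers to 1.13 to 24.1, myogenic markers to 0.0755 to 14.6 and embryonic stem cell markers to 0.0984 to 1.34, and Myod1, Myog, Emr1, Cdh5 and Pou5f1 were at 0 in at least 11 libraries. Osteoblast markers summed to 33.1 to 266 CPM, with 3 of the 3 tested lower in W330R-R181E than in W330R, and chondrocyte markers to 215 to 5192 CPM, with 2 of 4 higher. The chondrocyte sums split by replicate number in 2 of the genotypes. In WT they were 938, 1520.3 and 2149 CPM in the first library of days 2, 4 and 6 and 215, 421 and 467 CPM in the second. In W330R-R181E they were 2142, 4627 and 5192 CPM in the first and 254, 1170.2 and 1569 CPM in the second. The first and second libraries were close in W330R, at 333 to 821 CPM over these days, and in undifferentiated cells, at 979 to 1153 CPM. The part of this split in the results was not tested. Mitochondrial transcripts made up 4.98% to 7.22% of the counts in WT libraries, 4.02% to 6.98% in W330R and 3.91% to 6.98% in W330R-R181E, and their part in the results was not tested.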

How the data were processed

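The authors sequenced libraries made from total RNA and deposited whole-number counts per gene symbol, not normalized. The submitters' processing notes name kallisto, DESeq2 1.40 and GRCm39 without a role for each. The strand setting is not given in the sources used here. The table pairs 22 columns with the samples by genotype, stage and replicate number.

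From these counts, genes were kept with filterByExpr (minimum count 10, minimum total count 15), scaled by TMM and fitted with edgeR 4.0.16 in R 4.3.3 (robust quasi-likelihood F test, all 22 libraries, 1 mean per condition). Each of 24 contrasts was adjusted by Benjamini-Hochberg over 14520 genes and called at an adjusted p under 0.05. All p-values are two-sided. Averaged contrasts weight stages equally. The alternatives were RLE scaling, no filter, the replicate number as a block, a fit of the contrast's conditions only, DESeq2 1.42.0, and leaving out each library. The script was tested on simulated data. What libraries of the same replicate number share is not given in the labels.

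The 10 genes, the lists and the comparisons were chosen with earlier results of these data known. From each list the text names the 2 genes with the lowest adjusted p in each averaged comparison. The symbols of the table were matched to current names by RefSeq synonyms. The markers were fixed lists per cell type. Intervals cover 95% and rest on the replicate spread.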

Additional observations from a re-analysis of the deposited data

How the results depend on the processing

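Of 240 tests of the 10 genes over the 24 comparisons, 58 were called. RLE scaling, DESeq2 and the replicate block each kept all 58 and added 2, 23 and 19, the fit without a filter kept 52, and the fit of only the conditions compared kept 30 and added 12. None turned direction among called tests. Apart from the fit of the undifferentiated libraries alone, the share of all genes called under an alternative is not given here. A change in a count of the 10 genes is therefore not read as particular to them. For W330R against WT over 4 stages the count was 8 of 10, from 7 to 9 over all alternatives, and for W330R-R181E against W330R it was 8, from 7 to 9. The range for W330R against WT includes 2 settings chosen after seeing the data, and either gave 7. In these the undifferentiated libraries were left out or each pair was summed. They do not apply to W330R-R181E against W330R.

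The replicate numbers were not taken to pair the libraries, since not every pair of conditions correlated over 0.1, although most did at days 2 to 6. Deviations of same-numbered libraries there correlated at a median of 0.179 over 36 pairs of conditions, with 27 over 0.1 and 35 over 0, and at a median of -0.0109 between undifferentiated and later conditions, with 0 of 18 over 0.1. The replicate block moved the count from 0 to 2 for W330R against WT in undifferentiated cells and from 2 to 6 at day 2, and for W330R-R181E against W330R from 2 to 5 at day 2, 3 to 6 at day 4 and 1 to 2 at day 6.

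In the same 5 comparisons DESeq2 gave 3, 7, 6, 5 and 3, and it gave 1 for day 6 against day 4 in W330R-R181E. Without a filter the counts were 2 for W330R against WT in undifferentiated cells, 1 at day 4, and 2 for day 4 against day 2 in W330R. Fitting only the conditions compared gave 10 for W330R against WT in undifferentiated cells and 0 at days 2, 4 and 6, 0 for W330R-R181E against W330R on each day, 0 for W330R-R181E against WT averaged, and 0, 2 and 0 for day 4 against day 2 in WT, W330R and W330R-R181E. Such a fit leaves 2 residual degrees of freedom for 4 libraries. The cause of each change was not tested. Apart from the undifferentiated fit, the shares of all genes under these settings are not given here. These counts are therefore not read as particular to the 10 genes.

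Leaving out 1 library at a time gave 1 to 3 for W330R-R181E against WT averaged, and for W330R against WT 0 to 3 at day 2, 0 to 3 at day 4 and 0 to 2 at day 6. For W330R-R181E against W330R it gave 0 to 2 at day 2, 0 to 2 at day 4 and 0 at day 6 without any 1 of its 4 libraries. For day 4 against day 2 it gave 2 to 8 in WT, 0 to 4 in W330R and 0 to 5 in W330R-R181E. The calls at single days went to 0 for W330R against WT without the second WT or second W330R library of day 2, the second WT or first W330R library of day 4, and the second WT or either W330R library of day 6. For W330R-R181E against W330R they went to 0 without the first W330R library of day 2, or the first W330R or either W330R-R181E library of day 4. Estimates that crossed 0 were those of genes not called. Over the left-out libraries they ran from -0.0298 to 0.0971 for Sesn2 between W330R and WT, and between W330R-R181E and WT from -0.0307 to 0.245 for Atf4, from -0.0704 to 0.161 for Slc7a11 and from -0.355 to 0.00999 for Atf5, on the log2 scale.

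The lowest count of any of the 10 genes in a library was 32.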
